A study of Danio rerio with 4 samples.

Results

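The effect of valproic acid (VPA) on the injured zebrafish retina was read from 2 groups of wild-type fish aged 10 months: retinae at 4 days post injury from fish kept in 100 µM VPA for 4 days after injury (4 dpi + VPA), and retinae at 4 days post injury without VPA (4 dpi). Whole retinae were profiled by RNA sequencing, and each group was given by the authors only as a comparison with retinae of the uninjured group. A further group at 12 hours post injury (12 hpi) is used for context. The sources used here do not name the kind of injury. None of the 4 groups was uninjured and kept in VPA. A difference tied to injury and one that VPA makes in any retina therefore cannot be told apart. Levels are FPKM, fragment counts scaled to transcript length and to all mapped fragments, with 1 value per group, so neither a replicate error nor a test could be given for 4 dpi + VPA over 4 dpi. The study's design text speaks of duplicates, whereas the labels give 1 GEO sample per group.

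The 4 dpi tables listed whole genes and the 4 dpi + VPA tables single transcripts. Levels were therefore compared only for genes with 1 annotated transcript, for which the gene and the transcript are the same feature. Of 2119 genes listed anywhere in the series, 770 were such genes in at least 1 of the 2 comparisons, and 356 were listed in both. These 356 matched genes are the subject here. Their uninjured FPKM was the same in both tables for 356 of 356 genes, within a tolerance of 1%. A further 136 single-transcript genes were listed at 4 dpi + VPA only and 278 at 4 dpi only. The tables hold only entries with a p of at most 0.05 against uninjured and, in whichever group is higher, an FPKM above 1. That p is not adjusted for the number of entries, and the lowest adjusted value (q) at 4 dpi + VPA was 0.072. A gene not listed has no value here, and retinal markers that did not differ from uninjured are not seen. Of the photoreceptor markers that were matched, *nr2e3*, a rod transcription factor, had 43.6 FPKM at 4 dpi + VPA, 37.2 FPKM at 4 dpi and 11.9 FPKM in uninjured retina. *guca1d*, a photoreceptor guanylate cyclase activator, had 52.7 FPKM, 48.4 FPKM and 164.9 FPKM in the same order. These genes differed from uninjured in opposite directions, so they are no gauge of retinal content. The cone list had 2 matched genes, *guca1d* among them, and both were slightly higher with VPA.

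In the zebrafish retina, injury leads Müller glia, the radial glia that span the tissue, to reprogram, divide and give rise to progenitors that replace lost neurons. Microglia and other leukocytes gather at the same time. VPA is a small branched fatty acid that inhibits histone deacetylases, enzymes that take acetyl groups off histones, and it is used to raise histone acetylation. Histone genes of the replication-dependent kind are transcribed mainly in S phase, so their messages accompany dividing cells.

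With VPA, the lowest levels relative to 4 dpi were those of histone genes, proliferation genes and a pair of tubulin genes. The highest were those of lens crystallins, *fabp11a*, several copies of signal recognition particle RNA and a few immune genes. Of the 356 matched genes, 24 were at least 2-fold higher at 4 dpi + VPA than at 4 dpi, which is 6.74% of them, and 47 were at least 2-fold lower, which is 13.2%. The other 285 genes, or 80.1%, lay within 2-fold. The log2 difference, log2 of (FPKM at 4 dpi + VPA plus 0.1) over (FPKM at 4 dpi plus 0.1), had a median of -0.07 and an SD of 0.97 across genes, and it ran from -4.06 to 3.65. Of 21 lists of related genes or cell type markers with at least 3 matched members, 3 had a median past 2-fold: histones and chromatin proteins and the cell cycle and mitosis list on the lower side, and the lens, cornea and skin list on the higher side. The genes nearest the limit were *lect2l* at 1.04 and *si:ch73-36p18.4* at -1.01 just past 2-fold, and *synm* at 0.98 and *BX530067.1* at -0.96 just short of it. The excess of lower over higher genes was not present under a stricter limit for listing, but that limit itself depends on the levels in both groups. A gene raised by injury that is lower with VPA lies nearer to uninjured there and is dropped more easily. A raised gene that is higher with VPA lies nearer to uninjured at 4 dpi and is dropped more easily there. The limit of 0.05 by which the 356 genes were listed has the same dependence. The stricter limit therefore cannot decide whether the excess holds. Among the 97 genes with a p of at most 0.01 in both of the authors' deposited tables, 17 were at least 2-fold higher, 16 at least 2-fold lower, and the median was 0.11.

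**Figure D1:**
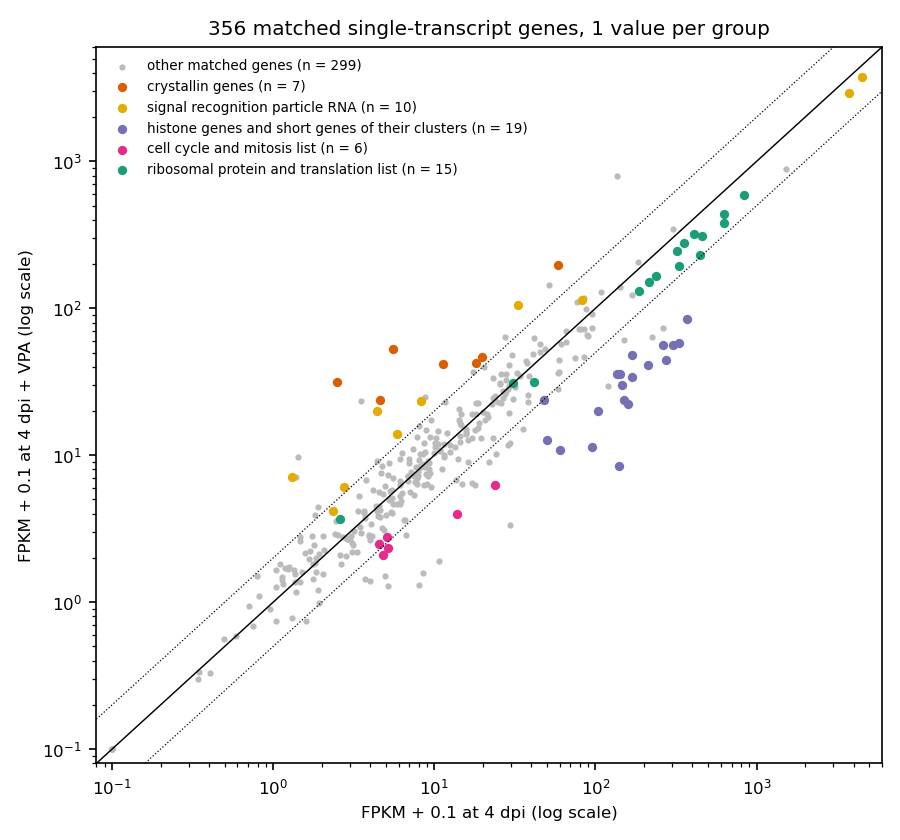
FPKM plus 0.1 at 4 dpi + VPA (y axis, log scale) against 4 dpi (x axis, log scale) for 356 matched genes, 1 point per gene; the solid line marks equal levels and the dotted lines 2-fold. The 19 histone genes and short genes of their clusters all lie at or below the lower dotted line, and the 7 crystallin genes all lie above the upper one.

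Every matched gene stood on the same side of uninjured in both comparisons: 214 were higher than uninjured at 4 dpi + VPA and at 4 dpi, 142 were lower in both, and 0 were opposite. Both comparisons use the same uninjured value and list only genes that differ from it, so agreement in side is largely built in. The difference with VPA was wide among the 214 genes that were higher than uninjured and narrow among the 142 that were lower. The 48 matched genes at 0 in uninjured retina all stood on the higher side. So did the 19 histone genes and short genes of their clusters. Listing requires a difference from uninjured in both groups, and how far this shapes either spread was not tested. Of the 214 genes higher than uninjured, 24 were at least 2-fold higher with VPA, or 11.2%, and 46 at least 2-fold lower, or 21.5%, with a median of -0.19 and an SD of 1.18. Among the 142 genes lower than uninjured, 0 were at least 2-fold higher with VPA, 1 was at least 2-fold lower, and the median was 0.01 with an SD of 0.39. That 1 gene was *cyp19a1b*, the brain form of aromatase, which had 0.647 FPKM at 4 dpi + VPA, 1.5 FPKM at 4 dpi and 6.36 FPKM in uninjured retina. It lies outside the rule by which genes were named and was singled out after its value was seen. The highest difference in that set was 0.98, for *synm*, which codes for the intermediate filament protein synemin and had 23 FPKM at 4 dpi + VPA, 11.6 FPKM at 4 dpi and 63.9 FPKM in uninjured retina. It was likewise named after its value was seen.

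As a yardstick, the standard error (SE) of each log2 fold change against uninjured was taken from the authors' deposited table as their fold change divided by their test statistic. It had a median of 0.84 for 4 dpi + VPA and 0.86 for 4 dpi over the 302 genes for which both could be had. The difference between the 2 groups exceeded both errors added in quadrature for 24 of these 302 genes, and it exceeded 2 times that sum for 0 genes, so this yardstick sets no gene apart from error. Both errors contain that of the uninjured value, which cancels in the difference, so the sum is wider than the error of the difference itself. A gene at 0 in uninjured retina has no such error, and 30 of the 71 genes past 2-fold had none. At 0 in uninjured retina were 18 of the 24 genes at least 2-fold higher and 12 of the 47 at least 2-fold lower. Among all 356 matched genes, 48 were.

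Histone genes formed the largest group among the genes that were lower with VPA. From the deposited names and protein annotation, 11 matched genes were histone genes, and 11 of 11 were at least 2-fold lower at 4 dpi + VPA than at 4 dpi, against 13.2% of all matched genes and 21.5% of those higher than uninjured, as all 11 were, with a median log2 difference of -2.32 against -0.07 over all matched genes. Core histones make up the nucleosome, around which DNA is wound, and linker histones bind the DNA between nucleosomes. *HIST1H4D*, named after a human H4 gene and located on chromosome 25 at 35788570 to 35788881 (build GRCz10), had 8.29 FPKM at 4 dpi + VPA and 139.9 FPKM at 4 dpi, and was listed at 0 in uninjured retina. It was 16.7-fold lower with VPA.

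A pair of matched copies were H2B genes. The copy named *HIST1H2BA* at 35797407 to 35797781 on chromosome 25 had 56.6 FPKM at 4 dpi + VPA, 303.8 FPKM at 4 dpi and 3.87 FPKM in uninjured retina. A second copy with the same name at 34627132 to 34627506 had 55.9 FPKM at 4 dpi + VPA, 262.6 FPKM at 4 dpi and 6.13 FPKM in uninjured retina. These copies were 5.36-fold and 4.69-fold lower with VPA. Both were above uninjured there, as a listing among the higher genes requires.

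Genes for the other core histones followed the same order of levels. *hist2h3c*, an H3 gene on chromosome 25, had 47.8 FPKM at 4 dpi + VPA, 167.8 FPKM at 4 dpi and 10.0 FPKM in uninjured retina. *HIST2H2AB*, an H2A gene on chromosome 7 at 6332357 to 6332794, had 12.5 FPKM at 4 dpi + VPA, 50.1 FPKM at 4 dpi and 0.759 FPKM in uninjured retina. *h2afx*, which codes for the H2A variant that is phosphorylated at DNA breaks and lies apart from the clusters on chromosome 5, had 35.8 FPKM at 4 dpi + VPA, 135.2 FPKM at 4 dpi and 6.31 FPKM in uninjured retina. Over the 11 genes, the median share of the gain over uninjured at 4 dpi that was present at 4 dpi + VPA was 18.3%, against 85.2% over all matched genes that were higher than uninjured. Both shares leave out genes that were not listed with VPA.

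Many histone genes of zebrafish lie in tandem clusters. Of the 37 annotated single-transcript histone genes listed, 35 fell into 5 clusters, 2 on chromosome 25 and 3 on chromosome 7. Each cluster had at least 3 annotated histone genes and gaps of at most 200 kb. The clusters were drawn from these listed histone genes, all of which had been listed at 4 dpi. The largest by matched genes ran from 34545427 to 34649027 on chromosome 25, and 8 of its 8 matched histone or short genes were at least 2-fold lower with VPA. The other chromosome 25 cluster, from 35787201 to 35797781, had 4 of 4. On chromosome 7, the cluster from 6216347 to 6332794 had 3 of 3, that from 73595914 to 73636124 had 2 of 2, and that from 5833513 to 5857076 had 1 of 1. Of all matched genes, 13.2% were at least 2-fold lower, and 21.5% of those higher than uninjured, as all genes counted here were. The counts take up 10 of the 11 histone genes given above, so they are no separate support for that result. They also include 8 short protein-coding genes, with loci of at most 1.5 kb, within the clusters or up to 20 kb from them. These carry no histone annotation in the sources used here. For these 8 genes the median log2 difference was -2.42, and it ran from -2.67 to -1.01. They are given by position only and were chosen after their values were seen. Another 27 such short genes were not matched, 0 listed at 4 dpi + VPA only and 27 at 4 dpi only. The share of such short genes listed at 4 dpi only was 77.1%, against 36.1% of all 770 single-transcript genes.

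Single-transcript histone genes that were not matched had all been listed at 4 dpi. Of 37 annotated histone genes, 11 were listed in both comparisons, 0 at 4 dpi + VPA only and 26 at 4 dpi only. The share listed at 4 dpi only was 70.3%, against 36.1% of all 770 single-transcript genes. The 26 genes had a median of 69.9 FPKM at 4 dpi, from 15.5 to 238.4 FPKM, and a median of 5.58 FPKM in uninjured retina. One of them, *hist1h4l*, an H4 gene, had 238.4 FPKM at 4 dpi and 10.2 FPKM in uninjured retina. Without the histone genes and their short neighbours, the count of matched genes at least 2-fold lower with VPA was 28 in place of 47.

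Their coding sequences are nearly identical between copies, so how reads were shared among copies is uncertain and single copies should not be ranked. Most replication-dependent histone messages lack a poly(A) tail, and the sources used here do not say whether the libraries were selected for poly(A). In bulk tissue, fewer cells of a type and less RNA per cell cannot be told apart.

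**Figure D2:**
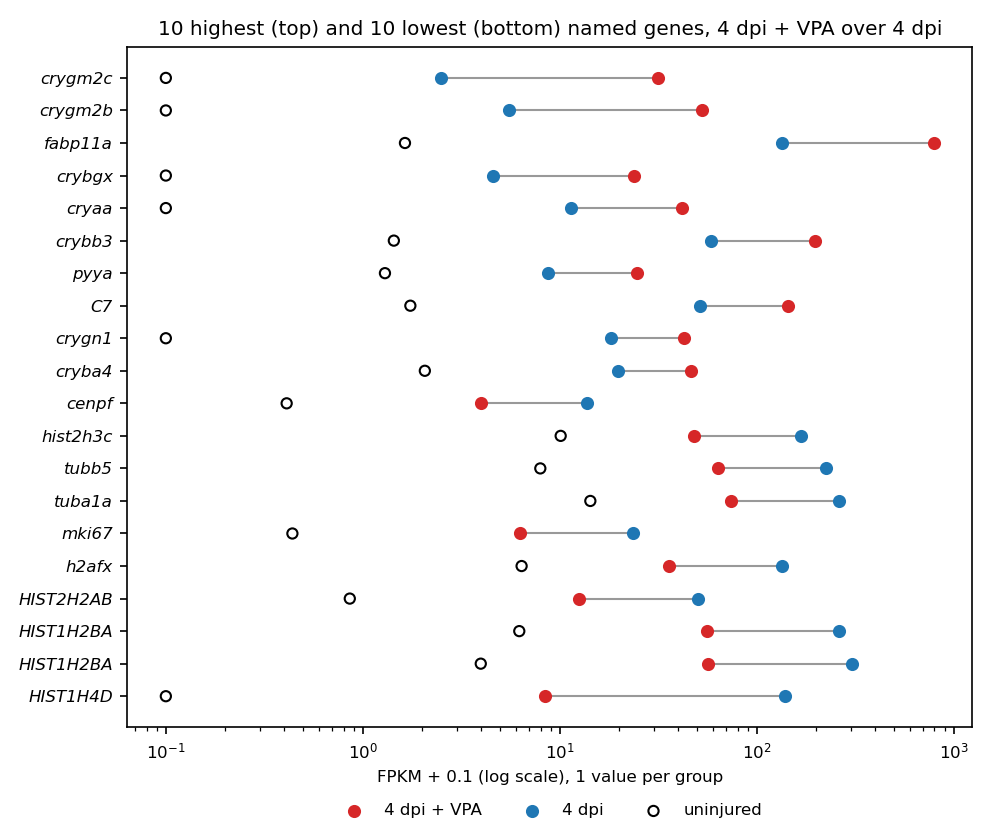
FPKM plus 0.1 (x axis, log scale) at 4 dpi + VPA (red), at 4 dpi (blue) and in uninjured retina (open circles) for the 10 named genes with the highest and the 10 with the lowest log2 difference, 1 value per group. Crystallin genes fill 7 of the upper 10 places and histone genes 6 of the lower 10, and all 20 genes stand above uninjured in both injured groups.

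Proliferation genes outside the histone clusters were lower with VPA as well. Of 6 matched genes on the cell cycle and mitosis list, 6 were lower, against 55.1% of all matched genes. Their median was -1.17, against -0.19 over matched genes higher than uninjured. At least 2-fold lower were 4 of the 6, or 66.7%, against 13.2% of all matched genes and 21.5% of those higher than uninjured, as all 6 were. *mki67*, which codes for the proliferation marker Ki-67, had 6.22 FPKM at 4 dpi + VPA, 23.6 FPKM at 4 dpi and 0.339 FPKM in uninjured retina, a log2 difference of -1.90. *cenpf*, a kinetochore gene, had 3.88 FPKM at 4 dpi + VPA, 13.7 FPKM at 4 dpi and 0.311 FPKM in uninjured retina, a log2 difference of -1.79. *kif20bb*, a mitotic kinesin gene, had 2.24 FPKM at 4 dpi + VPA and 5.08 FPKM at 4 dpi. *KNTC1*, another kinetochore gene, was the fourth, at 2.01 FPKM and 4.73 FPKM in the same order. It was named after its value was seen. The list does not hold every matched gene of mitosis. Outside it, the spindle genes *NUMA1* and *CKAP2* were lower and slightly higher with VPA, in that order. Both were named after their values were seen. Over the 6 matched genes of the list, the median share of the 4 dpi gain over uninjured that was present at 4 dpi + VPA was 40.7%. A gene is matched only if it was also listed with VPA, so members without such a listing are not in this share.

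Replication genes differed less. Of 4 matched genes on the DNA replication and repair list, 4 lay within 2-fold, as did 80.1% of all matched genes. Lower with VPA were 3, against 55.1% of all matched genes. The median was -0.58, against -0.19 over matched genes higher than uninjured, as all 4 were. Such counts over 4 genes do not set the list apart from all matched genes. *mcm5*, a subunit of the replicative helicase, had 8.93 FPKM at 4 dpi + VPA, 16.1 FPKM at 4 dpi and 0.448 FPKM in uninjured retina. *esco2*, a cohesin acetyltransferase gene, had 5.94 FPKM and 9.39 FPKM in the 2 injured groups in that order. *pold1*, the catalytic subunit of DNA polymerase delta, had 6.25 FPKM and 8.94 FPKM. *dhfr*, needed for thymidine synthesis, had 6.13 FPKM at 4 dpi + VPA and 5.98 FPKM at 4 dpi, a log2 difference of 0.03.

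Both lists also had members at 4 dpi that were not listed with VPA. Of 11 single-transcript genes on the cell cycle and mitosis list, 0 were listed at 4 dpi + VPA only and 5, or 45.5%, at 4 dpi only. Of 10 on the DNA replication and repair list, 0 were listed at 4 dpi + VPA only and 6, or 60.0%, at 4 dpi only. Over all 770 single-transcript genes the shares were 17.7% at 4 dpi + VPA only and 36.1% at 4 dpi only, so the cell cycle share at 4 dpi only was near that of all genes. Among them, *cdc6*, which licenses replication origins, had 5.05 FPKM at 4 dpi and 0.356 FPKM in uninjured retina. *hells*, a chromatin remodelling helicase, had 10.1 FPKM at 4 dpi and 0.821 FPKM in uninjured retina, and *rpa3*, part of the single-strand binding complex, had 15.7 FPKM and 1.78 FPKM in the same order. Their levels with VPA are not known from these tables.

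Genes tied to Müller glia reprogramming and progenitors showed smaller differences where they were matched. The 3 matched regeneration-associated factors were all lower with VPA and within 2-fold, against 55.1% and 80.1% of all matched genes in that order. Their median was -0.47, against -0.19 over matched genes higher than uninjured, as all 3 were. *sox11b*, a progenitor transcription factor, had 46.1 FPKM at 4 dpi + VPA, 74.1 FPKM at 4 dpi and 6.0 FPKM in uninjured retina. *ascl1b*, a proneural factor related to the reprogramming factor Ascl1a, had 5.28 FPKM at 4 dpi + VPA, 7.35 FPKM at 4 dpi and 1.39 FPKM in uninjured retina. *atf3*, a stress-induced factor, had 24.2 FPKM at 4 dpi + VPA and 26.6 FPKM at 4 dpi, a log2 difference of -0.13, and had stood at 81.8 FPKM at 12 hpi.

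Of the 8 single-transcript genes of this list, 0 were listed at 4 dpi + VPA only and 5, or 62.5%, at 4 dpi only, against 17.7% and 36.1% of all 770 genes in that order. Of these, *olig2*, a progenitor factor, had 15.4 FPKM at 4 dpi and 0.671 FPKM in uninjured retina. *gadd45gb.1*, a growth arrest gene also used in neurogenesis, had 13.3 FPKM and 0.819 FPKM in the same order. From the Notch list, 2 genes were listed at 4 dpi only, and none was matched. *dld*, a Delta ligand of Notch, had 7.26 FPKM at 4 dpi and 0.439 FPKM in uninjured retina, and *hes2.2*, of the Hes repressor family, had 8.48 FPKM and 1.09 FPKM. *sox2*, from the Müller glia list, which marks Müller glia and progenitors, had 23.9 FPKM at 4 dpi and 7.54 FPKM in uninjured retina.

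The Müller glia list had 4 matched genes, which differed in both directions. *gfap*, the glial intermediate filament gene, had 46.3 FPKM at 4 dpi + VPA, 84.5 FPKM at 4 dpi and 10.2 FPKM in uninjured retina, a log2 difference of -0.87. *vim*, for vimentin, had 73.9 FPKM at 4 dpi + VPA, 95.6 FPKM at 4 dpi and 15.7 FPKM in uninjured retina. *icn*, an S100 calcium-binding protein gene that is also on the lens, cornea and skin list, had 347.4 FPKM at 4 dpi + VPA and 303.5 FPKM at 4 dpi. *NES*, for the progenitor filament protein nestin, belonged to the tubulin, axon growth and actin list and had 3.53 FPKM at 4 dpi + VPA and 6.47 FPKM at 4 dpi.

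The fourth gene of the Müller glia list, *fabp11a*, was among the highest of all matched genes. Its place on that list does not show which cells its message came from, and this was not tested. This fatty acid binding protein gene, on chromosome 19 at 32579389 to 32581848, had 791.9 FPKM at 4 dpi + VPA, 135.1 FPKM at 4 dpi, 93.6 FPKM at 12 hpi and 1.54 FPKM in uninjured retina. It was 5.86-fold higher with VPA, and its level there was above that of every other matched gene apart from 3 entries, among them a pair of signal recognition particle RNA genes.

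A pair of tubulin genes were lower with VPA. *tuba1a*, an alpha tubulin gene that is high in growing and regenerating neurons and in dividing glia, had 73.8 FPKM at 4 dpi + VPA, 263.2 FPKM at 4 dpi and 14.2 FPKM in uninjured retina, 3.56-fold lower with VPA. *tubb5*, a beta tubulin gene, had 63.2 FPKM at 4 dpi + VPA, 223.9 FPKM at 4 dpi and 7.87 FPKM in uninjured retina, 3.54-fold lower. Of the 8 matched genes of the tubulin, axon growth and actin list, these were the 2 past 2-fold, or 25%, near the 21.5% of all matched genes higher than uninjured that were at least 2-fold lower. Another 5 were higher with VPA, so the median was 0.13. *gap43*, a growth cone gene, had 57.1 FPKM at 4 dpi + VPA and 45.5 FPKM at 4 dpi, and *cotl1*, an actin-binding protein gene, had 118.2 FPKM and 84.7 FPKM in the same order. Another matched tubulin gene, *tuba8l*, was slightly higher with VPA. Its log2 fold change against uninjured in the authors' deposited table was 5.27 at 4 dpi + VPA and 5.16 at 4 dpi. It was named after its value was seen. Tubulin genes share long stretches of sequence, so reads of close paralogs may be split among them.

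Ribosomal protein genes differed little but in 1 direction. Of 15 matched genes on the cytosolic ribosomal protein and translation list, 13 were lower with VPA, and the median was -0.51. All 15 lay within 2-fold, as did 80.1% of all matched genes. Of the 13 that code for ribosomal proteins by their symbol, 12 were lower, against 55.1% of all matched genes. All 13 were higher than uninjured, and matched genes on that side had a median of -0.19. *rps23* had 229.5 FPKM at 4 dpi + VPA, 443.0 FPKM at 4 dpi and 78.6 FPKM in uninjured retina, and *rps14* had 383.4 FPKM, 630.3 FPKM and 117.2 FPKM in that order. The exception was *rps27.2*, at 31.1 FPKM with VPA and 30.6 FPKM without. Their median share of the 4 dpi gain was 62.8%, again over matched genes only. Some of these genes are close paralogs, such as *rpl5a* and *rpl5b*, so the sharing of reads between them is uncertain.

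**Figure D3:**
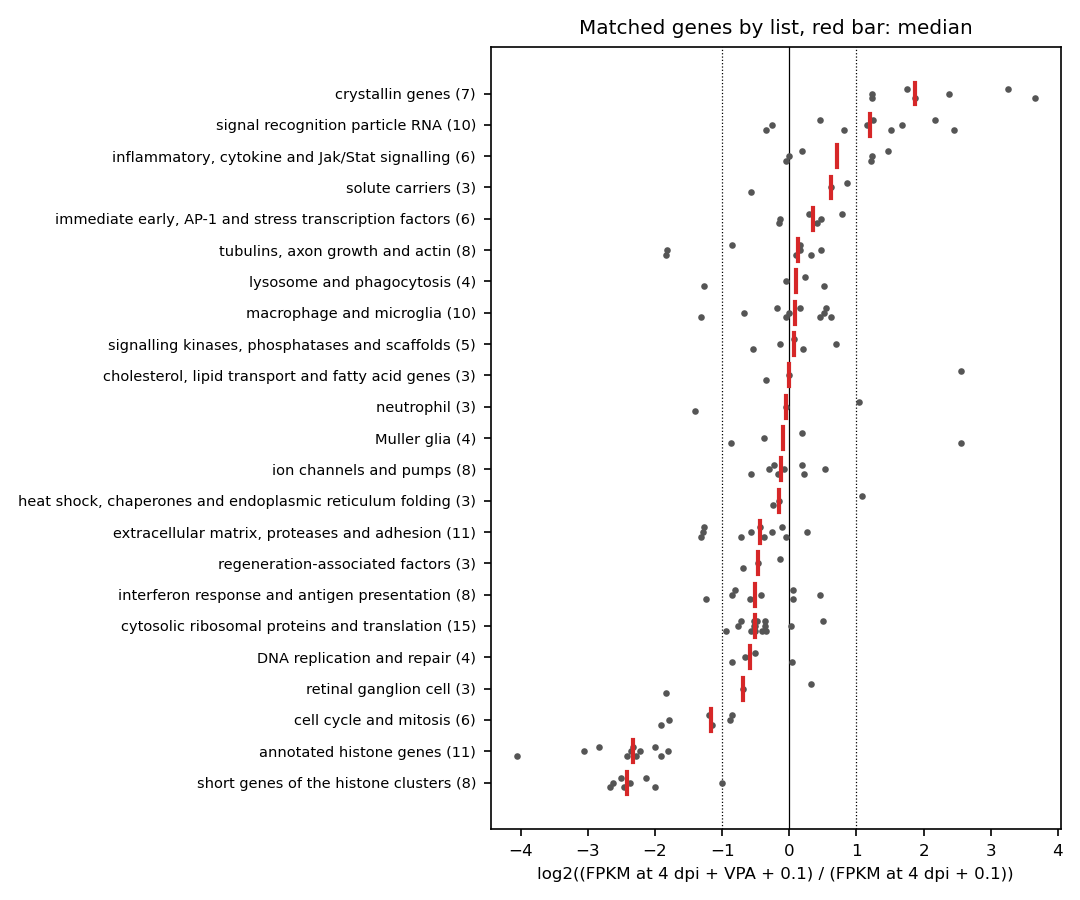
Log2 difference of 4 dpi + VPA over 4 dpi (x axis) for matched genes by list (y axis, number of genes in brackets), each point 1 gene and the red bar the median; dotted lines mark 2-fold. Histone genes and the short genes of their clusters lie lowest, with medians of -2.32 and -2.42, and crystallin genes highest, with a median of 1.88.

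Crystallin genes were the largest protein-coding group among the genes that were higher with VPA. Crystallins are the main soluble proteins of the eye lens, and several are also made in retinal cells. Of 9 matched genes on the lens, cornea and skin list, 7 were at least 2-fold higher with VPA, or 77.8%, against 6.74% of all matched genes and 11.2% of those higher than uninjured, as all 9 were. All 9 were higher with VPA, and the median was 1.75. The 7 were the matched crystallin genes. *crygm2c*, a gamma crystallin gene on chromosome 9 at 22211236 to 22212192, had 31.4 FPKM at 4 dpi + VPA and 2.40 FPKM at 4 dpi, a 12.6-fold difference. *crygm2b*, its neighbour at 22257543 to 22258495, had 52.7 FPKM and 5.42 FPKM in the same order. Both were listed at 0 in uninjured retina.

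The other crystallin classes differed in the same direction. *cryaa*, for alpha A crystallin, a small heat shock protein, had 41.8 FPKM at 4 dpi + VPA and 11.3 FPKM at 4 dpi and was listed at 0 in uninjured retina. *crybb3*, a beta crystallin gene, had 198.4 FPKM at 4 dpi + VPA, 58.8 FPKM at 4 dpi and 1.34 FPKM in uninjured retina. *cryba4* had 46.3 FPKM at 4 dpi + VPA and 19.7 FPKM at 4 dpi, *crygn1* had 42.7 FPKM and 18 FPKM, and *crybgx* had 23.8 FPKM and 4.49 FPKM. The crystallin genes were thus 2.35-fold to 12.6-fold higher with VPA.

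Crystallin genes were also well above uninjured at 12 hpi, where 7 of 7 were listed. Of all 356 matched genes, 86 were listed at 12 hpi. Of the 24 genes at least 2-fold higher with VPA, 15 were, the 7 crystallin genes among them. *cryaa* stood at 50.0 FPKM at 12 hpi, *cryba4* at 40.8 FPKM and *crybb3* at 120.5 FPKM. *crygm2c* stood at 13.6 FPKM at 12 hpi, *crygm2b* at 14.1 FPKM, *crygn1* at 22.6 FPKM and *crybgx* at 5.81 FPKM. The level at 12 hpi lay above that at 4 dpi in all 7 genes and above that at 4 dpi + VPA in 1, *cryaa*. A further lens gene, *crygm1*, was listed at 4 dpi + VPA only.

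The summed level of the 9 matched genes of the lens, cornea and skin list was 793.7 FPKM at 4 dpi + VPA, 430.4 FPKM at 4 dpi and 47.0 FPKM in uninjured retina. Of these sums, *icn*, given above among the Müller glia genes, made 347.4 FPKM, 303.5 FPKM and 42.3 FPKM in that order. The 7 crystallin genes summed to 437.0 FPKM, 120.1 FPKM and 3.30 FPKM in the same order. Listed at 0 in uninjured retina were 5 of the 9. Lens tissue in the dissected samples could move with these values, and its part in the result was not tested. Without this list, 17 matched genes in place of 24 were at least 2-fold higher with VPA. Gamma crystallin genes are near-identical copies, so levels of single copies are uncertain.

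**Figure D4:**
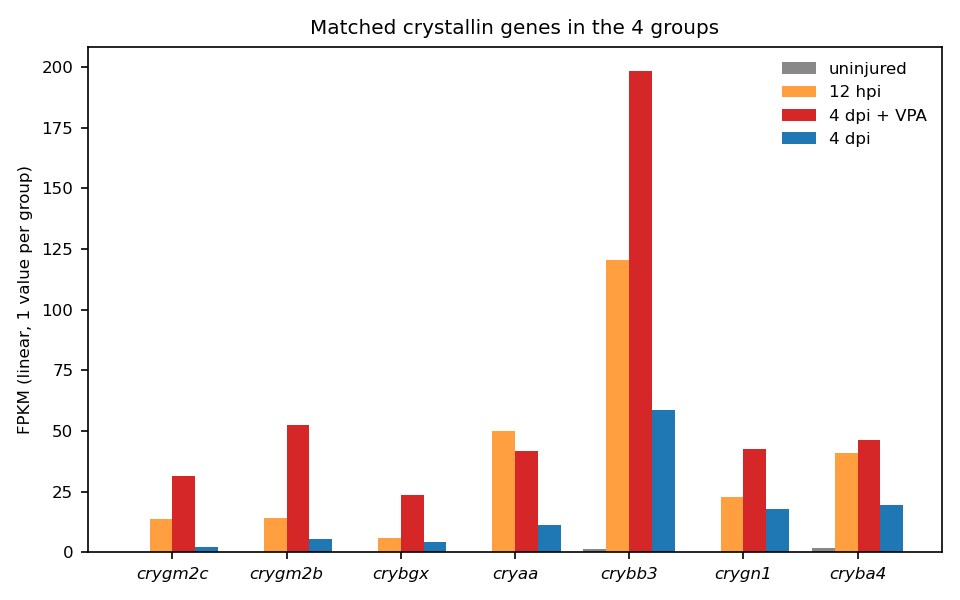
FPKM (y axis, linear, 1 value per group) of the 7 matched crystallin genes in uninjured retina, at 12 hpi, at 4 dpi + VPA and at 4 dpi. Each gene is higher at 4 dpi + VPA than at 4 dpi, and *cryaa* alone is higher still at 12 hpi.

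Immune genes went both ways. Of 6 matched genes on the list of inflammatory, cytokine and Jak/Stat genes, 3 were at least 2-fold higher with VPA, against 6.74% of all matched genes and 11.2% of those higher than uninjured, as all 6 were. None was at least 2-fold lower, and the median was 0.70. *C7*, named after human complement component 7 of the membrane attack complex, had 143.6 FPKM at 4 dpi + VPA, 51.7 FPKM at 4 dpi, 196.5 FPKM at 12 hpi and 1.64 FPKM in uninjured retina. *ccl34b.8*, a chemokine gene, had 63.3 FPKM at 4 dpi + VPA, 27.2 FPKM at 4 dpi and 2.48 FPKM at 12 hpi, and was listed at 0 in uninjured retina. *cxcl8b.1*, for a chemokine that attracts neutrophils, was the third, at 4.36 FPKM with VPA and 1.79 FPKM without, and was named after its value was seen. The chemokine receptor gene *cxcr3.2* had 7.12 FPKM at 4 dpi + VPA and 7.40 FPKM at 4 dpi, and *tnfrsf1a*, a TNF receptor gene, had 9.11 FPKM and 7.95 FPKM.

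Interferon-stimulated genes were found on both sides. Of 8 matched genes on that list, 5 were lower with VPA, near the 55.1% of all matched genes, and the median was -0.50. At least 2-fold lower was 1 of the 8, or 12.5%. This compares with 13.2% of all matched genes and 21.5% of those higher than uninjured, as all 8 were. That gene was *ifit8*, an interferon-induced gene, with 6.25 FPKM at 4 dpi + VPA, 14.8 FPKM at 4 dpi and 0.482 FPKM in uninjured retina. *dhx58*, an RNA sensor of the RIG-I family, had 13.1 FPKM at 4 dpi + VPA and 22.9 FPKM at 4 dpi, and *isg15*, a ubiquitin-like modifier, had 66.0 FPKM and 88.5 FPKM. *irf8*, a transcription factor of microglia and macrophages, had 14.4 FPKM at 4 dpi + VPA and 10.4 FPKM at 4 dpi.

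Leukocyte markers were found on both sides. Of 10 matched genes on the macrophage and microglia list, 5 were higher and 5 lower with VPA, and the median was 0.08. At least 2-fold lower was 1 of the 10, or 10.0%. Of all matched genes 13.2% were, and of those higher than uninjured, as all 10 were, 21.5%. Their summed level was 373.2 FPKM at 4 dpi + VPA, 432.4 FPKM at 4 dpi and 43.3 FPKM in uninjured retina. *lgals3bpb*, a secreted galectin-3-binding protein gene, was the 1 past 2-fold, at 60.5 FPKM with VPA, 151.2 FPKM without and 13.9 FPKM in uninjured retina. *fcer1gl*, an immunoreceptor adaptor gene, had 36.5 FPKM at 4 dpi + VPA and 58.3 FPKM at 4 dpi, whereas *coro1a*, a leukocyte actin regulator, had 33.6 FPKM and 23 FPKM, and *slc7a7*, a transporter gene needed by microglia, had 9.29 FPKM and 6.02 FPKM. On the neutrophil list of 3 matched genes, *csf3r*, the G-CSF receptor, had 6.34 FPKM at 4 dpi + VPA, 16.9 FPKM at 4 dpi and 1.10 FPKM in uninjured retina, while *lect2l*, a chemotaxin gene, had 9.0 FPKM and 4.32 FPKM and was listed at 0 in uninjured retina. *itgb2*, the leukocyte integrin beta chain, was close to equal at 15.1 FPKM and 15.5 FPKM.

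Matrix and protease genes were lower with VPA in 10 of 11 matched cases, against 55.1% of all matched genes. Their median was -0.44, against -0.19 over matched genes higher than uninjured. At least 2-fold lower were 3 of the 11, or 27.3%, which is near the 21.5% of all matched genes higher than uninjured, as all 11 were. *mmp14b*, a membrane-bound metalloprotease gene, had 8.85 FPKM at 4 dpi + VPA, 21.7 FPKM at 4 dpi and 0.869 FPKM in uninjured retina. *ctsk*, for the collagen-degrading protease cathepsin K, had 11.7 FPKM at 4 dpi + VPA, 28.4 FPKM at 4 dpi and 0.642 FPKM in uninjured retina. The third was *lgals3bpb*, given above. *itgb1b*, an integrin beta chain that binds matrix, had 23.1 FPKM at 4 dpi + VPA and 37.9 FPKM at 4 dpi. The 1 gene on the higher side was *anxa2a*, for annexin A2, at 129.0 FPKM and 108.0 FPKM, named after its value was seen.

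A few other genes of known function were higher with VPA. *pyya*, for the neuropeptide peptide YY, had 24.6 FPKM at 4 dpi + VPA, 8.62 FPKM at 4 dpi, 17.8 FPKM at 12 hpi and 1.20 FPKM in uninjured retina. *calr3b*, of the calreticulin family of endoplasmic reticulum chaperones, had 36.6 FPKM at 4 dpi + VPA, 17.2 FPKM at 4 dpi and 4.08 FPKM in uninjured retina. On the chaperone list of 3 matched genes, the other members were the cytosolic chaperonin subunits *cct4* and *tcp1*, which were slightly lower with VPA, at -0.24 and -0.15 on the log2 scale. *atf5a*, a stress transcription factor, had 35.9 FPKM at 4 dpi + VPA and 25.9 FPKM at 4 dpi, and *junbb*, an AP-1 factor, had 58.8 FPKM and 65.4 FPKM.

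Among non-coding genes, 10 signal recognition particle RNA genes, all on chromosome 11, were matched, and 6 were at least 2-fold higher with VPA. Of all matched genes 6.74% were, and of those higher than uninjured, as all 10 were, 11.2%. These 6 were listed at 0 in uninjured retina and had 1.20 to 105.0 FPKM in the injured groups. The 2 most abundant copies lay on the other side, at 3738 FPKM and 2933 FPKM at 4 dpi + VPA, against 4487 FPKM and 3725 FPKM at 4 dpi. Summed over the 10 copies, the level was 6964 FPKM at 4 dpi + VPA and 8351 FPKM at 4 dpi. The copies are near-identical, so the count of 6 says little about single genes. With protein-coding genes only, 18 of 324 matched genes were at least 2-fold higher and 42 at least 2-fold lower.

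Genes that were lower than uninjured differed little between the injured groups. Of 8 matched ion channel and pump genes, 0 were past 2-fold, against 1 of all 142 matched genes lower than uninjured. With VPA, 5 were lower and 3 higher, near the 55.1% of all matched genes that were lower. The median was -0.13. *kcnd3*, a potassium channel gene, had 7.27 FPKM at 4 dpi + VPA, 5.02 FPKM at 4 dpi and 27.0 FPKM in uninjured retina. *cacna2d2a*, a calcium channel subunit gene, had 6.89 FPKM at 4 dpi + VPA, 7.76 FPKM at 4 dpi and 36.3 FPKM in uninjured retina. *egr1*, an immediate early gene, had 13.3 FPKM at 4 dpi + VPA, 7.68 FPKM at 4 dpi and 37.8 FPKM in uninjured retina. *SLC45A4*, a solute carrier gene, had 17.2 FPKM at 4 dpi + VPA, 9.47 FPKM at 4 dpi and 118.2 FPKM in uninjured retina. *srebf1*, a regulator of lipid synthesis, had 12.6 FPKM at 4 dpi + VPA, 16.1 FPKM at 4 dpi and 54.6 FPKM in uninjured retina.

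Several genes were at nearly the same level with and without VPA, and 240 of the 356 matched genes lay within 1.5-fold. *aanat2*, the enzyme of melatonin synthesis, had 140.6 FPKM at 4 dpi + VPA, 141.3 FPKM at 4 dpi, 70.8 FPKM at 12 hpi and 26.8 FPKM in uninjured retina. *lpl*, for lipoprotein lipase, had 10.7 FPKM in both. The 240 genes include 6 that were listed at 0 in both injured groups. These 6 also count among the 285 genes within 2-fold.

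Single-transcript genes listed in 1 comparison carry no level for the other group. Of the 136 genes listed at 4 dpi + VPA only, 78 were higher and 58 lower than uninjured. Of the 278 genes listed at 4 dpi only, 194 were higher and 84 lower. As shares of all 770 single-transcript genes these are 17.7% at 4 dpi + VPA only and 36.1% at 4 dpi only. The median p against uninjured in the authors' deposited table was 0.034 for the genes listed at 4 dpi + VPA only and 0.023 for those listed at 4 dpi only, so many lie near the limit for listing and a gene in 1 table need not differ between the groups.

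**Figure D5:**
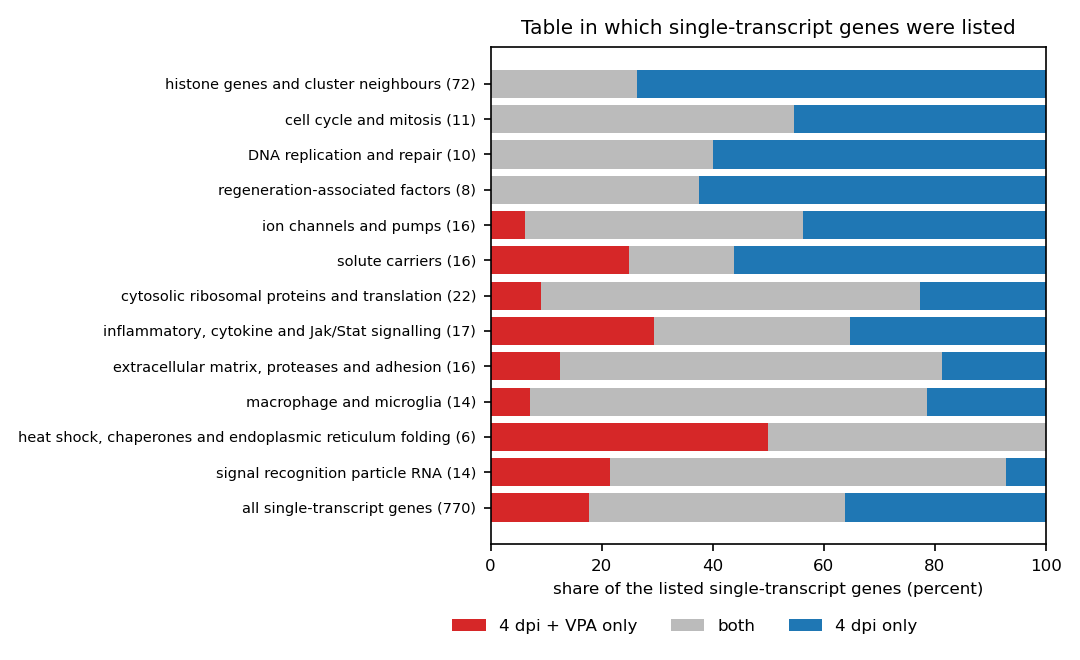
Share of listed single-transcript genes (x axis, percent, total in brackets) that were listed at 4 dpi + VPA only (red), in both comparisons (grey) or at 4 dpi only (blue), by list (y axis). Of all 770 genes, 17.7% were listed at 4 dpi + VPA only and 36.1% at 4 dpi only, while 0 of 72 histone genes and short genes of their clusters were listed at 4 dpi + VPA only.

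Of 17 single-transcript genes on the inflammatory list, 5 were listed at 4 dpi + VPA only and 6 at 4 dpi only, and of 5 on the cholesterol and lipid list, 1 and 1. The following genes were listed at 4 dpi + VPA only and were higher than uninjured. *cxcl18b*, a chemokine gene, had 58.9 FPKM at 4 dpi + VPA and 3.40 FPKM in uninjured retina, a log2 fold change of 4.11. *g0s2*, an inhibitor of triglyceride lipase, had 47.1 FPKM and 2.14 FPKM in the same order, and *PLIN5*, a lipid droplet protein gene, had 7.18 FPKM and 0.809 FPKM. *hsp90b1*, the endoplasmic reticulum form of Hsp90, had 51.7 FPKM at 4 dpi + VPA and 13.4 FPKM in uninjured retina, and *manf*, a neurotrophic factor induced by endoplasmic reticulum stress, had 14.6 FPKM and 3.51 FPKM. Of 6 genes on the chaperone list, 3 were listed at 4 dpi + VPA only and 0 at 4 dpi only, against 17.7% and 36.1% of all 770 genes in that order. *CD68*, a lysosomal marker of macrophages, had 10.5 FPKM and 1.80 FPKM, and *f3a*, for tissue factor, which starts coagulation, had 17.7 FPKM and 1.44 FPKM.

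The genes listed at 4 dpi + VPA only that were lower than uninjured were led by *fabp1a*, a fatty acid binding protein gene, with 4.17 FPKM at 4 dpi + VPA and 51.5 FPKM in uninjured retina. *sqlea*, for squalene epoxidase of cholesterol synthesis, had 0.861 FPKM and 5.67 FPKM. *grk7b*, the cone opsin kinase gene, had 1.74 FPKM at 4 dpi + VPA and 11.4 FPKM in uninjured retina, and *rgra*, a retinal G protein-coupled receptor gene of the pigment epithelium and Müller glia, had 21.8 FPKM and 82.9 FPKM.

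Some of the genes listed at 4 dpi only were lower than uninjured. *cplx4b*, for a complexin of ribbon synapses, had 57.7 FPKM at 4 dpi and 238.4 FPKM in uninjured retina, and *slc6a8*, the creatine transporter gene, had 17.1 FPKM and 78.8 FPKM. Of 16 genes on the solute carrier list, 4, or 25%, were listed at 4 dpi + VPA only and 9, or 56.2%, at 4 dpi only. Of 9 on the list of synaptic vesicle, neurotransmitter receptor and neuropeptide genes, 0 were listed at 4 dpi + VPA only and 7, or 77.8%, at 4 dpi only. The shares over all 770 genes were 17.7% at 4 dpi + VPA only and 36.1% at 4 dpi only. Among the genes higher than uninjured, *cxcr4b*, a chemokine receptor gene, had 14.5 FPKM at 4 dpi and 1.11 FPKM in uninjured retina, and *cldn5b*, a tight junction gene of endothelium, had 13.2 FPKM and 0.786 FPKM.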

How the data were processed

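Whole-retina RNA was sequenced in 4 groups with 1 GEO sample each. FPKM values were computed by the authors. The submitters' processing notes name TopHat2 2.1.0, Bowtie2 2.2.2, Cufflinks 2.2.1 and the build GRCz10. The deposited tables also give, by their headers, a log2 fold change against uninjured, a test statistic (a score), and p-values and q-values. How replicates were combined, the depth and the library selection are not given in the sources used here, so no interval could be made. The deposited rows were filtered at p of at most 0.05 and FPKM above 1 in the higher group. The q-values were adjusted over genes at 4 dpi and over transcripts at 4 dpi + VPA and were not compared.

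Genes with 1 transcript ID were matched by gene ID, and log2((FPKM + 0.1)/(FPKM + 0.1)) of 4 dpi + VPA over 4 dpi was computed with pandas 2.3.3; the matching was tested on simulated data. No test was made. Locus starts were raised by 1, since listed loci begin at 0. Gene names are those of the deposited tables, and 284 of 356 IDs had a symbol in the reference name table, which with the RefSeq names (assembly GRCz12tu, names only) was also used to find histone genes and list members.

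The matched genes and 36 gene lists were chosen with earlier results of these data known. Named genes had an established symbol and, in 1 of the groups compared, an FPKM of at least 5; they were the 10 highest and 10 lowest, up to 4 per list and, for genes in 1 pair of tables, the 10 highest and 10 lowest and up to 2 per list. Named from outside this rule are *KNTC1*, *NUMA1*, *CKAP2*, *cxcl8b.1*, *anxa2a*, *cyp19a1b*, *synm*, *tuba8l*, *rpl5a*, *crygm1* and genes given by position or clone name. So are the genes with several transcripts under other observations. All of these were chosen after their values were seen. Alternatives were another pseudocount, filters, centring, fold rules and gene sets.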

Additional observations from a re-analysis of the deposited data

How the results depend on the processing

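The alternatives were 2 other pseudocounts, 2 FPKM filters, division by each table's own uninjured value, centring on the median, all genes found in both comparisons with the most abundant listed transcript, a p of at most 0.01 and other fold rules. A median counted as unmoved within 0.1 and a count within 1.5 times. With all genes found in both, which sets transcript values against gene sums, the median log2 difference was -0.18 and 104 of 725 genes were at least 2-fold lower. With a p of at most 0.01 in both tables the median was 0.11 and 16 genes were at least 2-fold lower, with 97 genes left. As stated above, that limit depends on the levels in both groups and drops genes that lie near uninjured in either. At 3-fold, 12 genes were higher and 29 lower, and at 1.5-fold, 46 were higher. Chosen after seeing the data, leaving out histone genes and their cluster neighbours left 28 genes at least 2-fold lower. With a p of at most 0.01, 16 genes were listed at 4 dpi + VPA only and 70 at 4 dpi only. Against the larger of both standard errors, 49 of 302 genes exceeded it, against 24 for the sum in quadrature. The other counts and medians of all matched genes stayed within these limits. Of the medians of 21 lists with at least 3 matched genes, none past 2-fold changed sign under the alternatives in which they could be computed. Over these alternatives, 33 of 165 list medians moved by over 0.1. Of 82 named genes, none past 2-fold changed sign, but this was fixed in advance. Another pseudocount, division by the same uninjured value or centring on a median of -0.07 cannot reverse such a difference. Filters do not change the value of a gene. No paired analysis was possible because each group has 1 value. Leaving out replicates was likewise not possible, and with no depth given, the counting error of low values is unknown.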

Other observations

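Genes with several transcripts were left out of the comparison because the 4 dpi tables give the whole gene and the 4 dpi + VPA tables single transcripts. For these genes the sum of the listed transcripts at 4 dpi + VPA is a lower limit of the gene's level there, if a gene's FPKM is the sum over its transcripts. In uninjured retina the listed transcripts summed to no more than the gene's value in 367 of 369 such genes, within a tolerance of 0.1% plus 0.001 FPKM, and the other 2 were not used. The limit at 4 dpi + VPA was at least 2-fold above the gene's level at 4 dpi in 8 of the 367 genes, and 5 of the 8 were lens genes. *crygs4* had at least 160.7 FPKM at 4 dpi + VPA and 13.7 FPKM at 4 dpi, and *crygm3* had at least 304.2 FPKM and 39.3 FPKM in the same order. *crygm7* had at least 59.2 FPKM and 6.64 FPKM, *crygs2* at least 168.1 FPKM and 69.2 FPKM, and *lim2.4*, a lens membrane protein gene, at least 4.22 FPKM and 1.23 FPKM. The other 3 were *apoc1*, an apolipoprotein gene, with at least 591.9 FPKM at 4 dpi + VPA and 266.4 FPKM at 4 dpi, the chemokine gene *ccl34a.4* with at least 31.1 FPKM and 14.6 FPKM, and *si:ch211-219a15.3* with at least 5.94 FPKM and 1.62 FPKM. Not every lens-list gene with several transcripts had a limit past 2-fold. The log2 difference of the limit over 4 dpi was 0.76 for *cryabb*, 0.21 for *krt18* and 0.10 for *lim2.1*. It was -0.57 for *krt8* and -1.64 for *zgc:77517*. As lower limits, these values do not show that the levels themselves were short of 2-fold. No limit in the other direction can be had this way, since transcripts that were not listed have no value here.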
